A study of Mus musculus with 76 samples.

Results

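The cellular response to low oxygen was described through 9 genes: the transcription factor subunits Hif1a and Epas1, the oxygen sensor Egln3, the secreted ligands Vegfa and Adm, the glucose metabolism genes Slc2a1 and Pfkfb3, the mitophagy gene Bnip3 and the ankyrin repeat gene Ankrd37. They were chosen by symbol, and all 9 were among the 20710 genes measured, each by the probe with the highest mean over the 76 arrays. The arrays carried RNA of alveolar septa (39 arrays) and of pulmonary vessels (37 arrays), both microdissected from the lungs of 40 mice. Wild-type mice were compared with Noxo1 knockout mice (Noxo1 encodes a cytosolic organiser of the superoxide-producing enzyme NOX1), and the labels give C57BL/6-Noxo1(tm1881_17.2Arte) as the strain without naming a separate wild-type colony. Mice breathed smoke of Kentucky 3R4F research cigarettes from week 12 (5 days a week, 6 hours a day, particles at 140 mg/m3) or were controls. Tissue was taken at 3 or 8 months per the sample titles, so that age and length of exposure differ together between the times. The 2 genotypes, 2 exposures and 2 times gave 8 conditions, and with the 2 tissues 16 groups, 4 with 4 arrays and 12 with 5. Each mouse carried its own number in the labels, so the replicates were separate animals. The exception was mouse 25: the labels give that number to 2 vessel arrays and the number 21 to none. The label was taken as given and both arrays were averaged, which left 36 vessel replicates. The study asked what NOXO1 does in emphysema and pulmonary hypertension caused by smoke.

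Cells respond to low oxygen through the hypoxia-inducible factors. In the presence of oxygen, prolyl hydroxylases such as EGLN3 mark the alpha subunits HIF1A and EPAS1 (also called HIF2A) for destruction, and in hypoxia the subunits persist, pair with ARNT and bind DNA at the core motif ACGTG or GCGTG. Their targets include VEGFA, which supports the alveolar capillary bed, the vasodilator peptide adrenomedullin (Adm), the glucose transporter GLUT1 (Slc2a1), the glycolytic activator PFKFB3, the mitophagy receptor BNIP3, ANKRD37 and EGLN3 itself. Regulation of the alpha subunits is largely at the level of protein stability, which RNA arrays do not measure. In the lung, Epas1 is best known from endothelium and Vegfa from alveolar epithelium, and excess HIF activity in the vessel wall is a known feature of hypoxic pulmonary hypertension.

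Values are deposited log2 signals, so a difference of 1 is a doubling. Levels of different genes came from different probes and were not set against each other. As a floor for a measurable signal served the 95th percentile of 1322 odorant and vomeronasal receptor genes, which lay at 3.99. The mean signal of 53.1% of genes was above it. An array correlated with the others of its tissue at a median of 0.897 to 0.935 in septa and 0.801 to 0.882 in vessels, and array number limits the precision. Noxo1 was near the floor. It lay above it in 8 of 19 wild-type and 0 of 20 knockout septa arrays, and in 9 of 19 wild-type and 2 of 18 knockout vessel arrays. Its genotype difference in limma was -1.31 ± 0.32 in septa (unadjusted p = 0.000166) and -0.84 ± 0.47 in vessels (unadjusted p = 0.0864). Neither passed the adjustment over all genes (adjusted p = 1.0 in septa and 0.979 in vessels). The highest Noxo1 signal of all arrays (7.03) was in the vessel array labelled knockout, mouse 7, whose septa array had 3.63. Mouse 29, labelled wild-type, had 5.88 in its vessel array and 2.41 in its septa array. In mouse 7 (knockout control, 8 months) and mouse 29 (wild-type control, 8 months) Xist and Y-linked genes gave opposite sex patterns in septa and vessels, and several results below are also given without these mice. Among septa arrays, 10 of 20 from smoke-exposed mice but 4 of 19 from controls had the female pattern, and among vessel arrays 9 of 18 and 3 of 19, so sex and smoke were partly confounded. Sex and time were unevenly spread too. In wild-type smoke-exposed mice 0 of 5 septa and 0 of 5 vessel arrays had the female pattern at 3 months. At 8 months 3 of 5 and 3 of 4 had it. The sources used here do not give the sex of the mice.

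Tissue was the factor along which the hypoxia genes differed. Over the 8 conditions 5 of the 9 genes were lower in vessels than in septa (Vegfa, Pfkfb3, Ankrd37, Bnip3 and Epas1) and Egln3 was higher, while the differences of Hif1a, Adm and Slc2a1 did not pass the test. Vegfa was 2.45-fold and Pfkfb3 1.91-fold higher in septa, and in all 35 mice with both tissues the vessel array was the lower for each of these genes. The test was limma with equal weight for the 8 conditions, mouse as a random block, and Benjamini-Hochberg adjustment at 0.05 over all genes. Of all genes 12.7% were called higher and 16.4% lower in vessels by this rule. The median difference of the 9 genes (vessels minus septa) was -0.38, against 0.02 over all genes. In dissected tissue, fewer cells of a type and less RNA per cell cannot be told apart. Without mice 7 and 29 the same 6 genes passed.

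**Figure D1:**
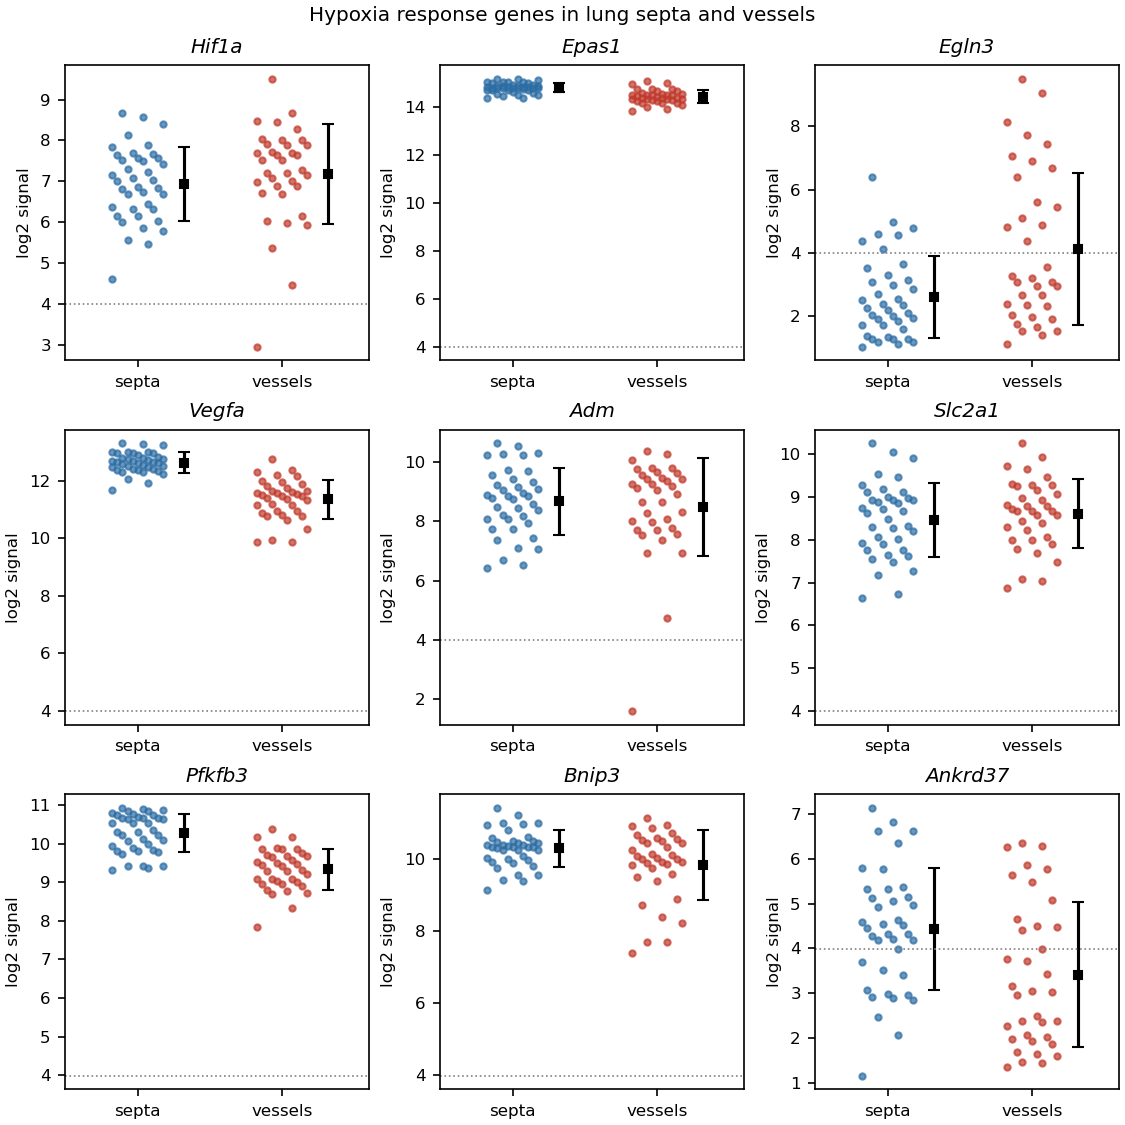
Log2 signal of the 9 hypoxia response genes in 39 septa and 36 vessel replicates. Each dot is a replicate, the square with bars is the mean ± SD, and the dotted line is the floor of 3.99. Each panel has its own axis. Vegfa and Pfkfb3 separate the tissues most, Epas1 lies far above the floor in every replicate, and Egln3 and Ankrd37 straddle the floor.

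Of the alpha subunits Epas1 passed and Hif1a did not, and their differences were not tested against each other. Hif1a, the broadly expressed subunit, ranged from 4.60 to 8.66 in septa (median 7.01) and from 2.95 to 9.51 in vessels (median 7.40). Its ranges overlapped widely, and the difference of 0.25 ± 0.22 (SE) had an adjusted p of 0.434 and a 95% interval from -0.19 to 0.69. The lowest value, 2.95 in a knockout control vessel replicate at 3 months, was the only Hif1a value below the floor. The other Hif1a probe, with means of 5.06 in septa and 4.95 in vessels, gave -0.07 ± 0.37.

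Epas1, the subunit prominent in endothelium, ranged from 14.39 to 15.19 in septa (median 14.82) and from 13.82 to 15.10 in vessels (median 14.41). The difference was small but regular: -0.38 ± 0.05 (adjusted p = 1.2e-09), with the vessel lower in 29 of 35 mice. These levels lie near the top of the scale, whose highest value was 15.79. The 2 dimmer Epas1 probes gave differences of -0.61 ± 0.07 and -0.68 ± 0.07, so the size depends on the probe and its direction does not.

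Egln3, the prolyl hydroxylase that is itself induced by hypoxia, was mostly below the floor in septa, with 7 of 39 replicates above it (range 1.04 to 6.41, median 2.27). In vessels 15 of 36 replicates were above it, the range was 1.13 to 9.51 and the median 3.15. The vessel values thus form a broad spread rather than a common level, with the highest replicates far above any septa value. The difference was 1.5 ± 0.39 (adjusted p = 0.00189), and the vessel was higher in 25 of 35 mice. The other Egln3 probe gave 1.30 ± 0.40 (adjusted p = 0.0082). Since most septa values were below the floor, the size of this difference is uncertain.

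Vegfa, the main growth factor for lung endothelium, ranged from 11.67 to 13.31 in septa (median 12.65) and from 9.87 to 12.76 in vessels (median 11.48). The mean was 12.64 ± 0.35 (SD, n = 39) in septa and 11.35 ± 0.69 (SD, n = 36) in vessels. The difference was -1.29 ± 0.10 (adjusted p = 3.01e-18), and within mice it ran from -2.54 to -0.13 with a median of -1.12. The vessel replicates varied more than the septa, and the lowest 3-month vessels lay over 1 log2 unit under every septa array. The other Vegfa probes gave -1.28 ± 0.10 and -1.15 ± 0.15.

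Adm, the peptide ligand that relaxes vessels, ranged from 6.44 to 10.64 in septa (median 8.80) and from 1.6 to 10.36 in vessels (median 8.99). The tissues overlapped almost completely, with a difference of -0.16 ± 0.31 (adjusted p = 0.738, 95% interval -0.78 to 0.45). A knockout control vessel replicate at 8 months, at 1.6, was the only Adm value below the floor.

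Slc2a1, the GLUT1 transporter, had a median of 8.63 in septa (6.64 to 10.26) and 8.68 in vessels (6.87 to 10.26), and its difference of 0.12 ± 0.18 did not pass (adjusted p = 0.672, 95% interval -0.24 to 0.48). Pfkfb3, which makes the activator of phosphofructokinase, ranged from 9.31 to 10.93 in septa (median 10.30) and from 7.84 to 10.37 in vessels (median 9.36). Its difference was -0.93 ± 0.11 (adjusted p = 1.69e-10), and within mice it ran from -1.94 to -0.34. The dimmer Pfkfb3 probe gave -1.47 ± 0.38.

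Bnip3, an outer mitochondrial membrane receptor for mitophagy, ranged from 9.16 to 11.44 in septa (median 10.35) and from 7.39 to 11.14 in vessels (median 10.04). The vessel distribution had a tail of low replicates, and the vessel was lower in only 20 of 35 mice. The difference was -0.45 ± 0.16 (adjusted p = 0.021). A dimmer probe gave -0.56 ± 0.15, and the dimmest, with tissue means below the floor, -0.24 ± 0.27.

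Ankrd37, a small ankyrin repeat protein, was above the floor in 26 of 39 septa and 12 of 36 vessel replicates. It ranged from 1.16 to 7.14 in septa (median 4.45) and from 1.35 to 6.36 in vessels (median 3.05), and the vessel was lower in 22 of 35 mice. The difference was -0.98 ± 0.34 (adjusted p = 0.0201). This call ended when mouse 22 was left out (adjusted p = 0.058).

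**Figure D2:**
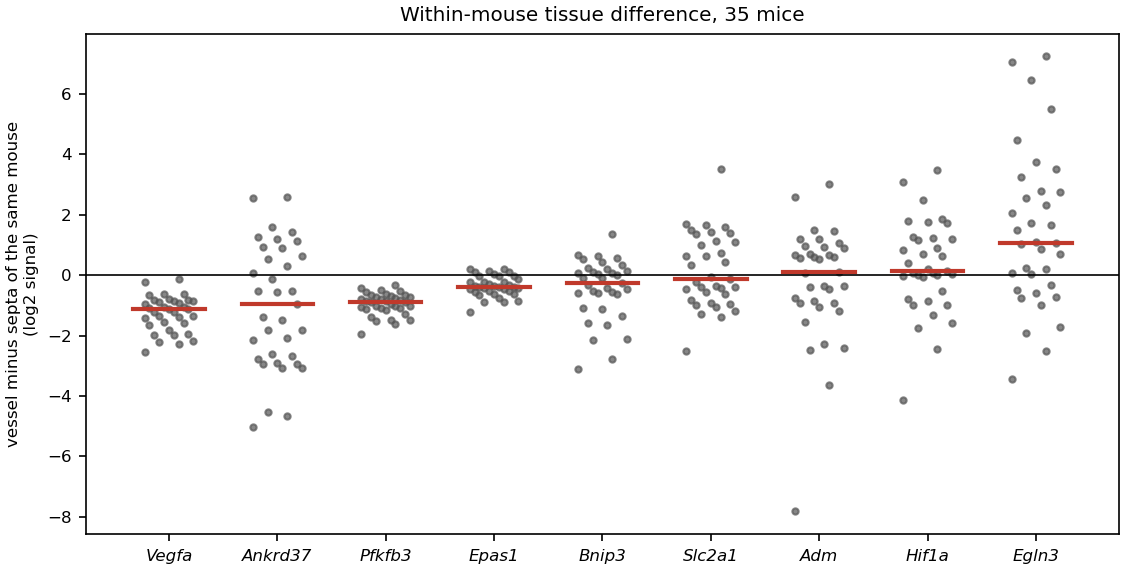
Difference of the vessel and septa log2 signal within each of 35 mice, for the 9 genes ordered by median. Each dot is a mouse, the red line is the median, and values below 0 are lower in vessels. All dots of Vegfa and Pfkfb3 lie below 0, with medians of -1.12 and -0.88, while Egln3 spreads from -3.43 to 7.24.

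The tissue difference of Vegfa was then followed through the 8 conditions. It passed in 7 of them. In wild-type controls at 3 months the septa replicates had 12.53, 13.31, 12.76 and 12.42. The vessel arrays had 11.36, 11.49, 9.88 and, for mouse 25, 10.90 and 11.45. No vessel value reached a septa value, and the difference was -1.78 ± 0.30. In wild-type smoke-exposed mice at 3 months septa had 12.62, 12.38, 11.67, 12.08 and 12.99. The vessels had 10.65, 11.56, 10.77, 10.81 and 9.87. These groups did not overlap either (-1.62 ± 0.27). In knockout controls at 3 months septa had 12.60, 12.80, 12.49, 12.48 and 12.67, a narrow range. The vessels had 11.83, 10.31, 10.94 and 11.15, all lower (-1.55 ± 0.28). In smoke-exposed knockouts at 3 months septa had 12.68, 12.25, 12.38, 11.91 and 12.53. The vessels had 11.48, 11.34, 10.96, 9.95 and 10.87, again without overlap (-1.43 ± 0.27).

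At 8 months the Vegfa differences were between -1.20 and -0.58. Wild-type control septa had 12.40, 12.99, 12.55, 12.97 and 12.89. The vessels had 12.32, 12.36, 11.56, 12.76 and 11.88, the highest vessel group of the study. This was the condition in which the groups overlapped and the test did not pass (-0.58 ± 0.27, adjusted p = 0.305; -0.58 ± 0.30 without mice 7 and 29). In wild-type smoke-exposed mice septa had 13.24, 12.84, 12.98, 12.73 and 12.68. The vessels had 11.64, 11.53, 11.62 and 11.97. All vessels were lower, by a mean of 1.20 log2 units. In knockout controls septa had 12.31, 12.99, 12.80, 12.30 and 12.98. The vessels had 11.74, 11.40, 11.51, 12.17 and 11.63. They did not overlap (-0.99 ± 0.27; -1.03 ± 0.30 without mice 7 and 29), and this call ended without mouse 10 (adjusted p = 0.0922). In smoke-exposed knockouts septa had 13.27, 12.75, 12.62, 12.65 and 12.34. The vessels had 12.01, 11.21, 12.20 and 10.77. They did not overlap (-1.18 ± 0.28), and this call ended without mouse 17 (adjusted p = 0.201).

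**Figure D3:**
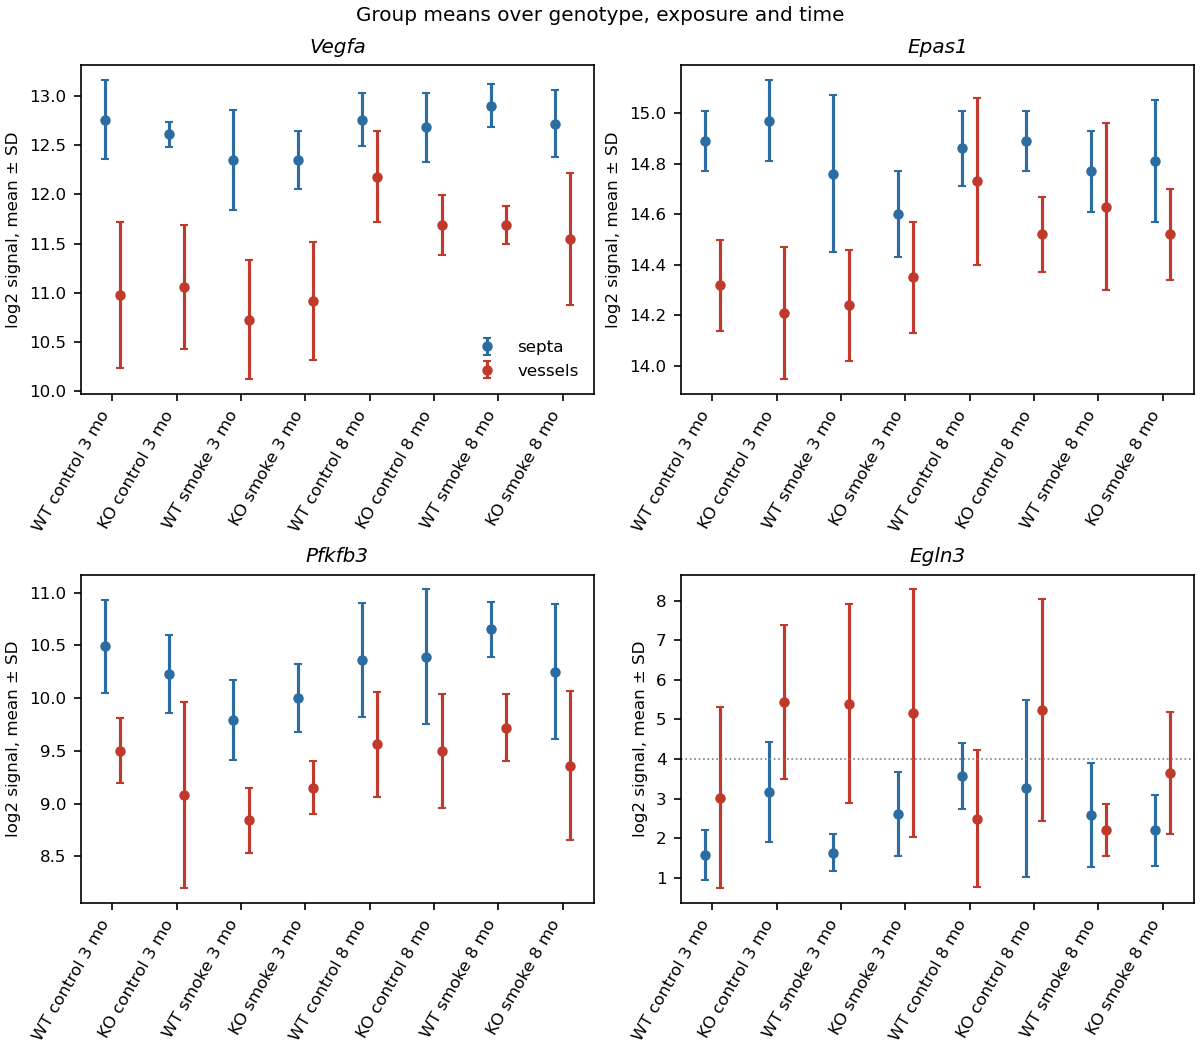
Mean ± SD of the log2 signal of Vegfa, Epas1, Pfkfb3 and Egln3 in the 8 conditions (4 or 5 replicates each) for septa in blue and vessels in red. WT is wild-type, KO is Noxo1 knockout, mo is months, and the dotted line is the floor of 3.99. The vessel means of Vegfa run from 10.73 to 12.18 while the septa means stay between 12.35 and 12.90.

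Fewer single conditions passed for the other genes. Over the 9 genes, 4 passed in knockout controls at 3 months (background over all genes 4.94%), 4 in wild-type smoke-exposed mice at 3 months (5.45%) and 2 in wild-type controls at 3 months (2.98%). Vegfa alone passed in smoke-exposed knockouts at 3 months (4.56%), knockout controls at 8 months (6.69%), smoke-exposed knockouts at 8 months (2.59%) and wild-type smoke-exposed mice at 8 months (3.75%). With limma 0 of 9 passed in wild-type controls at 8 months, where 3.3% of all genes did. At an unadjusted p under 0.05 there were 3 of the 9 and 13.2% of all genes.

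Epas1 passed in 3 conditions, all at 3 months. In knockout controls septa had 14.91, 15.13, 15.04, 14.73 and 15.06. The vessels had 14.27, 14.38, 13.82 and 14.34. All vessels lay below all septa (-0.77 ± 0.14, adjusted p = 0.000113). Wild-type controls gave -0.57 ± 0.15 (adjusted p = 0.0159), a call that ended without mouse 22 (0.213) or mouse 24 (0.117). Wild-type smoke-exposed mice gave -0.52 ± 0.13 (adjusted p = 0.00786), a call that ended without mouse 31 (0.0596) or mouse 35 (0.0792). In the other 5 conditions the difference lay between -0.37 and -0.13. With the mean of the 3 Epas1 probes it passed in 3 more conditions: knockout controls at 8 months and smoke-exposed knockouts at both times.

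Pfkfb3 differences were even over the conditions, from -1.14 to -0.80, and passed in 2 of them. With mouse as a fixed block in place of a random one it passed in the 6 others too, with adjusted p values from 0.00691 to 0.0375. In knockout controls at 3 months septa had 10.66, 10.06, 9.78, 10.09 and 10.54. The vessels had 9.09, 9.64, 7.84 and 9.75. The closest replicates nearly touched, and the difference of -1.14 ± 0.32 (adjusted p = 0.0217) did not pass without mouse 2, 3 or 5, nor with the mean of both probes (adjusted p = 0.115). In wild-type smoke-exposed mice at 3 months septa had 9.88, 9.42, 10.30, 9.41 and 9.94. The vessels had 8.77, 8.32, 9.03, 9.08 and 9.00. They did not overlap, but the adjusted p of 0.0498 was so near the threshold that the call ended without any 1 of the 5 mice of that condition (31 to 35), without mice 7 and 29 (0.0575), and with array weights (0.114), no block (0.0585), the mean of probes (0.0503), renewed quantile normalisation (0.0529) or both mouse 25 arrays kept (0.0538).

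Egln3 passed in wild-type smoke-exposed mice at 3 months. Septa had 1.61, 1.38, 1.04, 2.19 and 2.00, all below the floor. The vessels had 3.27, 4.90, 3.10, 9.06 and 6.68. The groups did not overlap (3.76 ± 1.07, adjusted p = 0.0218), and the call ended without mouse 32 (0.0554), 34 (0.0756) or 35 (0.158), with array weights (0.0558) and with the mean of both probes (0.212). High single vessel values of Egln3 occurred in other conditions too, as 9.51 in a smoke-exposed knockout at 3 months and 8.15 in a knockout control at 8 months. Bnip3 passed in knockout controls at 3 months, where septa had 10.99, 9.91, 9.83, 10.47 and 11.02. The vessels had 9.92, 9.88, 7.71 and 7.71. The upper vessels overlapped the septa and the lower ones made the difference of -1.63 ± 0.45 (adjusted p = 0.0185), which did not pass without mouse 3 (0.0966), 4 (0.194) or 5 (0.06), with the mean of probes (0.0569) or with mouse as a fixed block (0.0575).

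None of the 9 genes showed a tissue difference that passed a test of change with exposure, genotype or time. In each of these limma tests 0 of 9 passed, and of all genes 0.00966% passed for exposure, 0.0% for genotype and 0.0386% for time. At an unadjusted p under 0.05 there were 0 of 9 genes for exposure (6.33% of all genes), 0 for genotype (4.65%) and 3 for time (8.55%). Those 3 were Vegfa, whose tissue difference was smaller at 8 months by 0.61 ± 0.20 (adjusted p = 0.325), Epas1 by 0.29 ± 0.10 (adjusted p = 0.336), and Egln3, whose difference moved by -2.0 ± 0.79 (adjusted p = 0.44). Without mice 7 and 29 these values were 0.60 ± 0.20, 0.27 ± 0.10 and -1.76 ± 0.81.

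The rest of the pathway was read from lists of genes. The counts of each list stand beside 12.7% of all genes called higher and 16.4% called lower in vessels. Of 13 genes of the oxygen-sensing machinery 1 was higher and 4 were lower in vessels (median -0.11). The largest of these differences were in Hif1an, the asparaginyl hydroxylase that keeps coactivators off HIF (-1.03 ± 0.38), Cul2, the cullin of the VHL ubiquitin ligase (-0.67 ± 0.23), and Egln2, a further prolyl hydroxylase (-0.33 ± 0.13). Hif1an was near the floor, with means of 4.61 in septa and 3.59 in vessels. Arnt, the partner of the alpha subunits, had 8.80 ± 0.54 (SD, n = 39) in septa and 8.88 ± 0.67 (SD, n = 36) in vessels, and its difference did not pass. Arnt was picked after its values were seen. Of 23 measured HIF targets outside glycolysis, from a list of 24, 5 were higher and 5 lower (median -0.06). They included Bhlhe40, a transcriptional repressor (1.12 ± 0.28), Fam162a, a mitochondrial protein (0.70 ± 0.13), and Plod2, a collagen lysyl hydroxylase (-1.26 ± 0.34).

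Of 18 glycolysis genes 8 were higher in vessels and 3 lower (median 0.21), against 12.7% and 16.4% of all genes. The 8 were enzymes of the pathway itself, such as Gapdh (0.55 ± 0.08), Aldoa (0.40 ± 0.07), Hk1 (0.52 ± 0.11) and Tpi1 (0.78 ± 0.20). The 3 lower genes were the glucose transporter Slc2a3 (-2.19 ± 0.31), the Pfkfb3 relative Pfkfb4 (-1.30 ± 0.24) and the lactate exporter Slc16a3 (-1.17 ± 0.23). Gapdh, Aldoa, Hk1 and Tpi1 were picked after their values were seen.

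Several receptors of the 2 ligands were lower in vessels too. Of 9 other VEGF ligands and receptors 4 were lower and 1 higher (median -0.46), against 16.4% and 12.7% of all genes. Kdr, the main signalling receptor for VEGFA, was lower by a mean of 1.22 log2 units (8.93 ± 0.76 in septa, 7.71 ± 0.88 in vessels, SD), and the coreceptor Nrp2 gave -1.13 ± 0.24. Pgf, a ligand of FLT1, was higher (1.46 ± 0.48, adjusted p = 0.0139). Of 6 adrenomedullin partners 2 were lower and 0 higher (median -0.45): the receptor Calcrl (-1.91 ± 0.29) and its accessory protein Ramp2 (-0.69 ± 0.09), while Adm itself did not pass.

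Markers of cell types differed between the tissues beside these genes. All 10 smooth muscle markers were higher in vessels (median difference 4.37), and their mean level ranged from 5.61 to 7.28 in septa and from 10.03 to 11.94 in vessels. All 9 markers of type 1 pneumocytes were lower in vessels (median -2.12), with a mean level of 9.37 to 10.91 in septa and 6.48 to 9.86 in vessels. All 10 type 2 pneumocyte markers (median -1.35), 9 of 10 capillary endothelium markers (median -1.05) and all 9 measured neutrophil markers (median -2.72) were lower as well. In vessels 8 of 10 ciliated cell markers and 8 of 10 cardiomyocyte markers were higher. The mean level of the cardiomyocyte markers was uneven among vessel replicates, from 3.04 to 11.95 with a median of 4.32. In septa 8 of the 10 cardiomyocyte and 4 of the 10 ciliated cell markers had a mean below the floor. No pneumocyte or capillary marker had a mean below the floor in either tissue. The part of cell makeup in the tissue differences of the hypoxia genes was not tested.

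**Figure D4:**
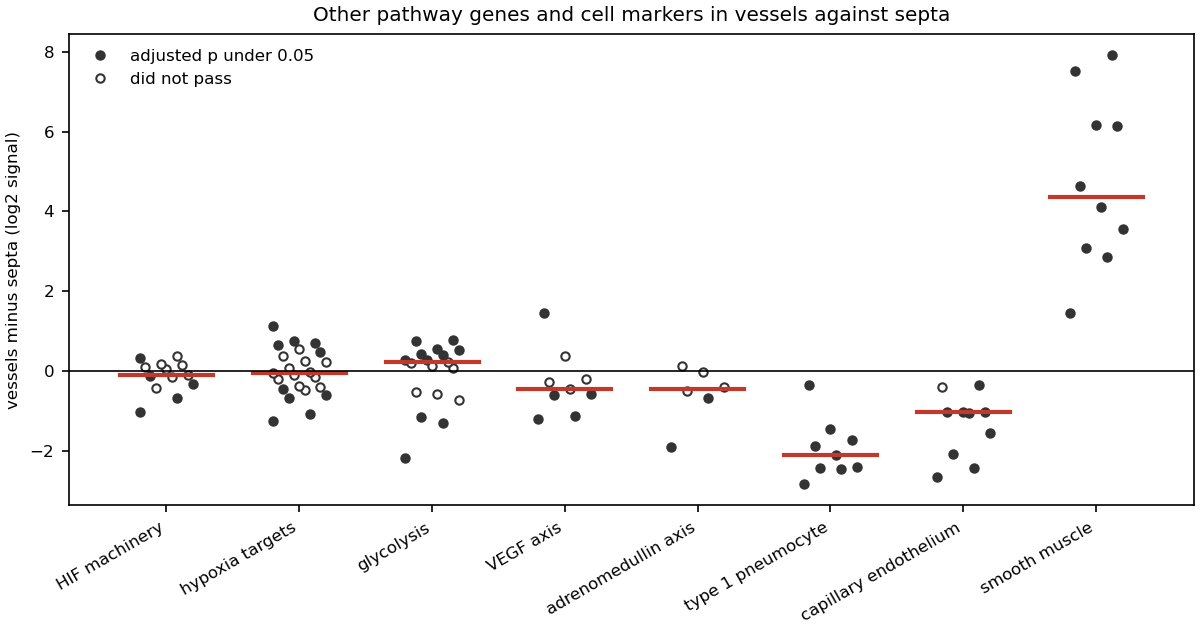
Difference between vessels and septa in log2 signal for each gene of 5 pathway lists and 3 cell marker lists. Filled dots passed at an adjusted p of 0.05, open dots did not, and the red line is the median of the list. The pathway medians lie between -0.46 and 0.21, and those of type 1 pneumocytes and smooth muscle at -2.12 and 4.37.

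The promoters of the genes were examined for the HIF core motif. Most of the genes are known HIF targets, so a high share of windows with the motif was likely from the choice of genes. It cannot speak to the tissue differences. RefSeq windows of GRCm38.p6, from 250 bases before to 50 after an annotated start, matched 8 of the 9 genes with 10 windows. The motifs ACGTG and GCGTG, searched on both strands with overlapping matches joined into 1 run, were in 9 of the 10 windows and in 43.8% of all 32851 windows of the same length. The windows of the genes held 54.7% to 71.7% G and C, against a median of 52.7% over all windows, and a match is a description of letters, not a binding site. Shown are the windows with most runs (Bnip3 with 4, Ankrd37 and an inner Pfkfb3 start with 3 each, where 6.43% of all windows had 3 or more), the gene that was higher in vessels (Egln3, 1 run) and the gene with the lowest adjusted p between tissues (Vegfa, outer start, 0 runs). Each is written on the strand of the gene, 5′ to 3′, and capitals mark the motif on either strand.

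Bnip3 promoter: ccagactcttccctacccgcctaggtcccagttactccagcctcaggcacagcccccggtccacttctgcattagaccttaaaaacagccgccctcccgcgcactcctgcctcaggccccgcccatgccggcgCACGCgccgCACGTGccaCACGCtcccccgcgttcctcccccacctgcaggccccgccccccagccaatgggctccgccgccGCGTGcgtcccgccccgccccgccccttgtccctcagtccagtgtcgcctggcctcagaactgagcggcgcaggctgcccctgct
Ankrd37 promoter: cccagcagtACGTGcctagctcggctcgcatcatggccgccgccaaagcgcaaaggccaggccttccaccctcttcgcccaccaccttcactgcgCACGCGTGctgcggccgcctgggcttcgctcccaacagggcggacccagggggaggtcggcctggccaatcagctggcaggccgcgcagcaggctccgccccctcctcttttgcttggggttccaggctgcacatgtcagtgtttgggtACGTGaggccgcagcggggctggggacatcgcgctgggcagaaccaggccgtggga
Pfkfb3 inner promoter: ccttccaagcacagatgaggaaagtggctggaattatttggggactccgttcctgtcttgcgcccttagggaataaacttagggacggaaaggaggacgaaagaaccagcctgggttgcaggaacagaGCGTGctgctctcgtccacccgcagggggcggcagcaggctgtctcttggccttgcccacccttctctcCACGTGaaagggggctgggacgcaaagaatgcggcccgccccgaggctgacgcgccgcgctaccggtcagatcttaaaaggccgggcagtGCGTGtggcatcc
Egln3 promoter: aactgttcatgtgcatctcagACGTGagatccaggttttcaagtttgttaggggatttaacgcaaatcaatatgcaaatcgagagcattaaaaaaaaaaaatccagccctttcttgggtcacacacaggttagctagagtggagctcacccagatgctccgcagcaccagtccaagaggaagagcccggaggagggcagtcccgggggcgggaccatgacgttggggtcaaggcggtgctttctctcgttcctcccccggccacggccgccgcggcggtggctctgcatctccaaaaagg
Vegfa outer promoter: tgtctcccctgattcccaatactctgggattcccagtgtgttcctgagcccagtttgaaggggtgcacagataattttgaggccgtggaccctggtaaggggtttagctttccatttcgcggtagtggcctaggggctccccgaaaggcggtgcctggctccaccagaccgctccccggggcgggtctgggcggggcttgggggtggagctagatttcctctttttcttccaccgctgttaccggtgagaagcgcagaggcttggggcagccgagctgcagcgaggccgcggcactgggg

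The Bnip3 window was chr7:138909457-138909756, minus strand, and 1 of its runs is the palindrome CACGTG, which holds ACGTG on both strands. The Ankrd37 window was chr8:45999801-46000100, minus strand. The Pfkfb3 window was chr2:11502041-11502340, minus strand, and the outer Pfkfb3 window (chr2:11553880-11554179) held 1 run. The Egln3 window was chr12:54203825-54204124 and the Vegfa window chr17:46032328-46032627, both on the minus strand. The inner Vegfa window (chr17:46025114-46025413) held 2 runs, as did those of Slc2a1, Adm and Hif1a.

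Smoke was tested within each tissue, the comparison at the centre of the study. No gene of the 9 passed. Averaged over genotypes and times, limma called 0 of 9 in septa and 0 of 9 in vessels, and of all genes 0.0% in either tissue. At an unadjusted p under 0.05 there were 2 of 9 in septa (7.7% of all genes) and 0 of 9 in vessels (5.0%). All 9 differences in septa were below 0 (median -0.19, against -0.03 over all genes, of which 54.8% were below 0). With the mean of probes Vegfa and Pfkfb3 were at 0.01, and with the sex pattern as a covariate Adm was at 0.06. In vessels 7 of 9 were below 0 (median -0.02, against -0.01 over all genes, of which 50.8% were below 0).

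Epas1 and Slc2a1 were the 2 genes in septa. Epas1 in 19 control septa arrays had 14.90 ± 0.13 (SD) and in 20 smoke-exposed arrays 14.73 ± 0.23 (SD). The difference was -0.17 ± 0.06, with an unadjusted p of 0.0083 and an adjusted p of 0.556. The dimmer Epas1 probes gave -0.06 ± 0.08 and -0.17 ± 0.08, so its size depends on the probe. With the brightest probe the difference was largest in knockouts at 3 months, where controls had 14.91, 15.13, 15.04, 14.73 and 15.06. Their smoke-exposed counterparts had 14.55, 14.48, 14.40, 14.76 and 14.80. The groups overlapped slightly, and the difference of -0.38 ± 0.12 had an adjusted p of 0.999. Slc2a1 in septa had 8.75 ± 0.89 (SD) in controls and 8.20 ± 0.77 (SD) after smoke, a difference of -0.53 ± 0.24 with an unadjusted p of 0.0323 and an adjusted p of 0.607. With the sex pattern as a covariate the Slc2a1 difference was -0.24 ± 0.22, and that of Epas1 -0.15 ± 0.06. Other smoke differences grew with this covariate in limma. In septa Ankrd37 went from -0.76 to -1.16 ± 0.40 (adjusted p = 0.563) and Bnip3 from -0.27 to -0.32 ± 0.15 (adjusted p = 0.635). In vessels Vegfa went from -0.25 to -0.40 ± 0.19 (adjusted p = 0.744). Without mice 7 and 29 Slc2a1 and Epas1 in septa were at -0.61 ± 0.24 and -0.17 ± 0.06.

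**Figure D5:**
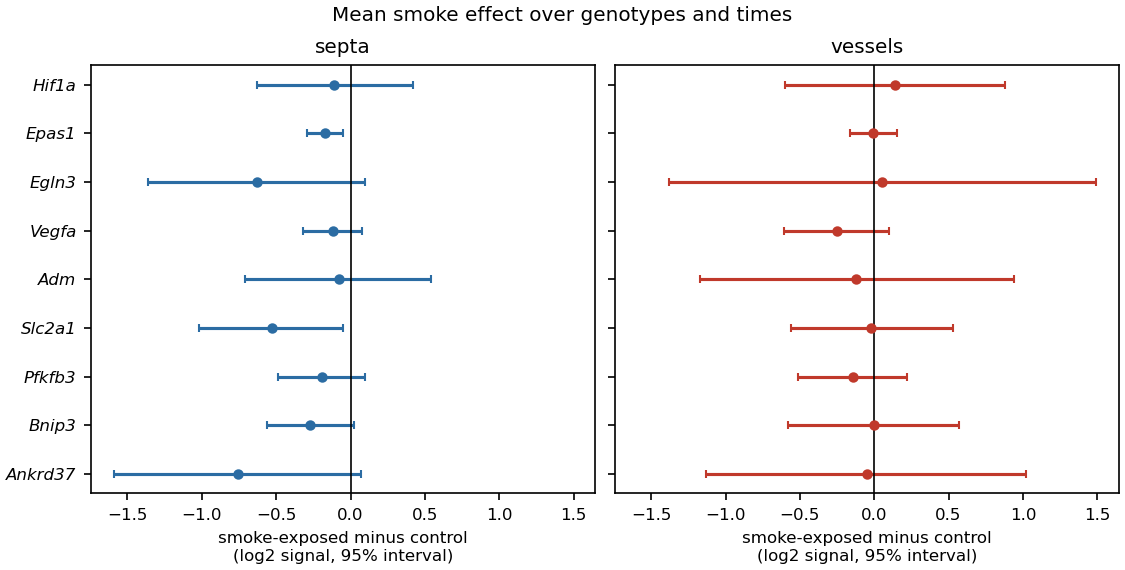
Mean difference between smoke-exposed and control mice in log2 signal for the 9 genes, averaged over genotype and time, in septa (left) and vessels (right). Dots are estimates and bars 95% intervals from limma before adjustment. In septa all 9 dots lie below 0 and the intervals of Epas1 and Slc2a1 exclude 0, while in vessels every interval includes 0.

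The intervals differed in width between genes. For Vegfa the 95% interval of the mean smoke difference ran from -0.32 to 0.08 in septa and from -0.61 to 0.10 in vessels. For Egln3 it was far wider, from -1.36 to 0.10 in septa and from -1.38 to 1.49 in vessels. Within single conditions 0 of 9 genes passed in septa (0.00483% of all genes in wild-type mice at 3 months, 0.0% in the other 3 conditions) and 0 of 9 in vessels (0.0% in all 4). Unadjusted p values under 0.05 occurred in septa for Pfkfb3 in wild-type mice at 3 months, Slc2a1 in wild-type mice at 8 months and Epas1 in knockouts at 3 months, and in vessels for Hif1a in knockouts at 3 months.

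Loss of Noxo1 was compared next, averaged over exposures and times. In septa 0 of 9 genes passed (0.0% of all genes) and 1 had an unadjusted p under 0.05 (3.98% of all genes). In vessels 0 of 9 passed (0.0%) and 1 had such a p (4.86%). The gene in septa was Adm, with 8.34 ± 1.13 (SD, n = 20) in knockouts and 9.02 ± 1.03 (SD, n = 19) in wild-type mice. Its difference of -0.66 ± 0.31 had an adjusted p of 1.0. The gene in vessels was Egln3, with 4.91 ± 2.39 (SD, n = 18) in knockouts and 3.36 ± 2.23 (SD, n = 18) in wild-type mice (1.59 ± 0.71, adjusted p = 0.979). Without mice 7 and 29 these were -0.70 ± 0.32 and 1.72 ± 0.73. With the sex pattern as a covariate in limma Adm in septa was at -0.56 ± 0.32 and Egln3 in vessels at 1.47 ± 0.74. Hif1a in vessels was then at -0.83 ± 0.38 (adjusted p = 0.896). Whether smoke acted differently in the genotypes was tested as an interaction, and 0 of 9 passed in septa (0.0%) and in vessels (0.0%), with 0 of 9 unadjusted p values under 0.05 in either (3.8% and 4.38% of all genes).

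Time gave the lowest p values after tissue, in Vegfa. In control vessels Vegfa had 11.02 ± 0.64 (SD, n = 8) at 3 months and 11.93 ± 0.45 (SD, n = 10) at 8 months, but the difference of 0.92 ± 0.25 did not pass (adjusted p = 0.209). In smoke-exposed vessels the means were 10.82 ± 0.57 (SD, n = 10) and 11.62 ± 0.46 (SD, n = 8), a difference of 0.79 ± 0.25 (adjusted p = 0.165). When both tissues were put in 1 fit with a mouse block, both differences passed, with adjusted p values of 0.0145 and 0.019. That fit called 168 of 20710 genes for time in control and 446 in smoke-exposed vessels. The fit of vessels alone called 1 and 39. The joint fit shares 1 estimate of the spread between the tissues, while Vegfa varied more in vessels than in septa. With the mean of probes the differences in vessels were 0.44 and 0.26, and that in smoke-exposed septa, given next, 0.12. With the sex pattern as a covariate in limma the differences were 0.98 ± 0.24 in control vessels (adjusted p = 0.146) and 0.60 ± 0.26 in smoke-exposed vessels (adjusted p = 0.491). That in smoke-exposed septa was then 0.42 ± 0.15. Without mice 7 and 29 the difference in control vessels was 0.83 ± 0.26 (adjusted p = 0.391). In control septa the Vegfa difference was 0.03 ± 0.14 (-0.03 ± 0.15 without these mice), and in smoke-exposed septa 0.46 ± 0.14 (adjusted p = 0.102), which passed when replicate 5 of the wild-type smoke-exposed septa at 3 months was left out (adjusted p = 0.039).

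In the limma fits by tissue 0 of the 9 genes passed for time in control vessels (0.00483% of all genes), smoke-exposed vessels (0.188%), control septa (0.478%) or smoke-exposed septa (0.695%). Unadjusted p values under 0.05 were found for 2, 4, 1 and 3 of the 9 genes in that order, and for 8.41%, 10.9%, 10.7% and 12.2% of all genes. Beside Vegfa these were Epas1 in control (0.36 ± 0.11) and smoke-exposed vessels (0.28 ± 0.11), and Egln3 (-2.35 ± 1.00) and Pfkfb3 (0.55 ± 0.26) in smoke-exposed vessels. In septa they were Slc2a1 in controls (0.95 ± 0.35, or 1.11 ± 0.36 without mice 7 and 29), and Hif1a (1.10 ± 0.36) and Pfkfb3 (0.56 ± 0.20) in smoke-exposed mice. With the sex pattern as a covariate Slc2a1 in control septa was at 0.72 ± 0.31. In smoke-exposed septa Hif1a was then at 1.16 ± 0.39 and Pfkfb3 at 0.49 ± 0.22. In smoke-exposed vessels Epas1 was at 0.31 ± 0.12, Egln3 at -2.63 ± 1.10 and Pfkfb3 at 0.47 ± 0.28, and in control vessels Epas1 was at 0.35 ± 0.11. With the mean of probes Hif1a in smoke-exposed septa was at 0.36, Epas1 at 0.16 in control and 0.03 in smoke-exposed vessels, and Pfkfb3 at 0.91 in smoke-exposed vessels. Neutrophil markers had a median time difference of 1.29 in control and 1.42 in smoke-exposed vessels, with 9 and 7 of 9 above 0. Over all genes the medians were 0.02 and 0.03, with 48.2% and 47.3% below 0. In control septa the mean level of the neutrophil markers also went from 9.78 to 11.19 in wild-type mice and from 10.11 to 11.15 in knockouts. In smoke-exposed septa it went from 9.93 to 10.54 and from 9.73 to 10.68. Alveolar macrophage markers had 1.31 in smoke-exposed septa, with 10 of 10 above 0. All genes there had a median of 0.01, with 49.1% below 0. The other marker lists are not given for time. None of the neutrophil markers passed in vessels, 1 macrophage marker did in smoke-exposed septa, and their part in the time differences was not tested. No gene of the 5 pathway lists passed in a smoke, genotype or time comparison.

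Genes with the most similar pattern over the 16 group means were looked up among 10995 genes whose mean over all arrays was above the floor. The group means share platform and, within a tissue, dissection, and the correlations are given as a description. For Vegfa they were Ostf1 (r = 0.979) and Plaur (r = 0.97), for Pfkfb3 Ppp1r2 (0.963) and Hpgd (0.954), and for Epas1 Rab1a (0.953) and Nap1l1 (0.945). For Bnip3 they were Rasa2 (0.904) and H2aw (0.894), for Hif1a Cnih1 (0.869) and Ipo5 (0.851), and for Ankrd37 Tbx4 (0.856) and Crb3 (0.853). For Adm they were Dock6 (0.841) and Dusp19 (0.707), for Egln3 Ap1m1 (0.825) and Naaa (0.82), and for Slc2a1 Mrpl22 (0.809) and Lonrf3 (0.807).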

How the data were processed

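RNA of microdissected septa and vessels was extracted with RNeasy Micro, amplified with Ovation PicoSL WTA V2 and hybridised in 1 colour (Cy5) to Agilent mouse arrays, per the labels. The authors left out 4 arrays without signal, per the labels. The authors deposited log2 values. Per the submitters' processing notes limma was used, without version. The sources used here name no background correction. That values were quantile normalised was read from the values (quartiles differed by at most 0.0024).

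Of 62976 features 31465 carried a symbol, from a table pairing probes with genes; 29036 were matched by accession to RefSeq and 2933 symbols updated. Features with an empty cell (285 of the named) were left out, and of 6007 genes with several probes the brightest on average was used. Tissue was taken from the sample titles. Means models were fitted with limma 3.58.1 in R 4.3.3 (eBayes with trend, Benjamini-Hochberg over 20710 genes at 0.05): 1 fit per tissue with 8 groups, and for tissue comparisons 1 fit of 75 replicates with mouse as a random block (duplicateCorrelation, consensus correlation 0.028). Septa and vessel residuals of the same mouse correlated at a mean of 0.03 (35 pairs, 1 over 0.1; other mice -0.007), and pairing comes from the mouse numbers. The scripts were tested on simulated data. Tables and figures used Python 3.11.15, pandas 2.3.3 and matplotlib 3.10.9. The genes and lists were chosen with earlier results of these data known. All 9 genes were named in every comparison. From each pathway list were named up to 3 genes past the threshold with the largest tissue difference and a mean above the floor in a tissue, and for each of the 9 genes the 2 most similar genes. Alternatives were mean of probes, a filter at the 25th percentile, renewed quantile normalisation, array weights, blocks, sex pattern, only the groups compared, and leaving out mice, arrays, or mice 7 and 29.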

Additional observations from a re-analysis of the deposited data

Results flagged for a closer look

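In 11 of 144 sets of replicates (9 genes in 16 groups) the highest or lowest value stood apart from the rest by Dixon's criterion, where chance gives about 1 in 20. The widest gap was in Adm, at 1.6 in replicate 5 of the knockout control vessels at 8 months against 7.71 to 9.42 in the others. In wild-type smoke-exposed vessels at 3 months, replicate 1 stood apart for both Bnip3 (7.39, others 9.6 to 10.12) and Ankrd37 (3.71, others 1.47 to 2.03). In wild-type control septa at 3 months, a group of 4, replicates stood apart for Epas1 (15.06, others 14.81 to 14.85), Egln3 (2.51, others 1.19 to 1.34, all below the floor), Slc2a1 (8.89, others 8.2 to 8.29) and Pfkfb3 (9.82, others 10.67 to 10.76); replicate 4 held the Egln3 and Slc2a1 values. Egln3 was 5.47 in replicate 5 of the wild-type control vessels at 8 months, against 1.13 to 2.33. Slc2a1 was 7.9 in replicate 5 of the knockout control septa at 8 months, against 9.12 to 9.53. In wild-type smoke-exposed septa at 8 months Epas1 was 14.49 in replicate 4 (others 14.78 to 14.89) and Bnip3 was 10.95 in replicate 1 (others 10.35 to 10.46).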

How the results depend on the processing

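No called direction reversed in 7713 recomputed values of 270 results; 32 lost and 14 gained a call, and 424 values changed sign where neither passed. Over the 8 conditions the count of tissue calls was 6 of 9 under all 9 alternatives and 5 to 6 when each mouse was left out. Within conditions it moved. In knockout controls at 3 months 4 calls became 2 with the mean of probes and 2 to 4 when mice were left out. In knockout controls at 8 months 1 became 2 with the mean of probes, with mouse as a fixed replicate block, or with the dim genes left out, and 0 to 1 when mice were left out. In smoke-exposed knockouts at 3 months 1 became 3 with the mean of probes and 2 with the replicate block, and at 8 months 2 with either and 0 to 1 when mice were left out. In wild-type controls at 3 months leaving out mice gave 1 to 2 of 2, and at 8 months the replicate block turned 0 into 1. In wild-type smoke-exposed mice at 3 months 4 became 2 with array weights or the mean of probes, and 1 to 3 when mice were left out; at 8 months the replicate block gave 2 in place of 1. For time, leaving out arrays gave 0 to 1 in smoke-exposed septa, and 1 fit over both tissues gave 1 in control and 1 in smoke-exposed vessels in place of 0. Smoke and genotype counts stayed at 0 in every alternative. The fixed mouse block gave Vegfa -1.30 ± 0.08 in the paired tissue comparison and added Pfkfb3 in 6 conditions and lost Bnip3 in 1. The number in the titles, which does not mark shared animals, changed no count as a block. Signal near the floor limits Egln3 and Ankrd37, and nearness to the top of the scale Epas1.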

Other observations

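After group means were removed, 27 relations of the 9 genes with the mean level of type 1 pneumocyte, capillary endothelium and smooth muscle markers were computed over 36 vessel replicates, with 100000 permutations within groups; the relations were chosen after seeing the data. None passed adjustment. For Vegfa and type 1 markers Pearson's r was 0.13 (permutation p = 0.488, adjusted p = 0.911) and Spearman's rho 0.06 (p = 0.776, adjusted p = 0.889), with r = 0.15 when the 2 replicates farthest from the median marker level were left out.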
